A study of Mus musculus with 27 samples.

Results

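The genes described are 7 that move ions or water and are linked to the filling of the blastocyst cavity: Atp1b1, Atp1b3, Aqp3, Aqp8, Aqp9, Aqp11 and Slc9a3. They were chosen by name and are 7 of the 55367 genes counted. In the mouse embryo, cavitation begins after compaction, when the outer cells form a sealed epithelium, the trophectoderm. The Na,K-ATPase pumps sodium across the inner face of these cells, sodium enters at their outer face through exchangers such as that encoded by Slc9a3, and water follows through aquaporins into the space that becomes the blastocoel. The morula is the stage just before this, when the parts of the machinery are being made and the cavity has not yet opened.

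RNA was measured in 27 libraries, 3 in each of 9 groups, each from a pool of 15 to 20 wildtype mouse embryos cultured in KSOM medium and harvested as morulae at E2.75 (embryonic day). In the inhibitor family, embryos were treated from E2.5 with Vehicle, with SAHA (500 nM) or TSA (50 nM), which inhibit histone deacetylases, or with A485 (10 uM), which inhibits the acetyltransferases p300 and CBP. In the siRNA family, embryos were injected into the zygote cytoplasm at E0.5 with siControl, siP300, siKat6a, siKat6b or siComb. The labels do not name the siRNAs in siComb. The series text calls the pools biological replicates without saying whether they were collected separately, so the p-values measure the spread between these pools, which may be technical. Because whole embryos were pooled, fewer cells of a type and less RNA per cell cannot be told apart in any value below.

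Library totals ran from 7557591 to 11988857 counts. The preimplantation markers summed to between 629 and 3460 CPM (gene counts scaled to library size, with TMM factors over the 27 libraries), although Sox2 was at 0 in every library. The targets of the siRNAs were checked first. Ep300 stood at 16.6, 11.4 and 27.7 CPM in the 3 libraries labelled siP300 and at 22.7, 23.6 and 28.9 in siControl, so the groups overlapped and siP300 3 was no lower than siControl 1 and 2 (edgeR adjusted p = 0.259). Kat6a was lower in every siKat6a library than in any siControl library and Kat6b likewise with siKat6b, neither past the test. In siComb, Ep300 stood at 14.5 to 28.3 CPM, Kat6a at 9.38 to 11.2 against 15.8 to 18.1 in siControl (adjusted p = 0.0220) and Kat6b at 30.8 to 75 against 100 to 115 (adjusted p = 0.00815), and Ep300 overlapped siControl. Of the libraries, Vehicle 3, siP300 2, siKat6b 1, siKat6b 3 and siComb 2 carried high counts of the retrovirus MERVL for their groups, and results that change without them are given below. Mitochondrial transcripts took 0.997 to 1.2% of counts in Vehicle and 1.61 to 3.57% with the inhibitors, and 4.94 to 6.99% in siP300 and 4.86 to 5.41% in siComb against 1.94 to 2.45% in siControl. Their part in the results was not tested.

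Of the 7 genes, 6 had enough counts to be tested in each family. Slc9a3, the gene for the sodium proton exchanger NHE3, had 0 to 7 counts per library and 53 in all, with 13 libraries at 0. Its counts summed to 7 over Vehicle, 5 over SAHA, 3 over A485, 5 over TSA, 11 over siControl, 9 over siP300, 6 over siKat6a, 0 over siKat6b and 7 over siComb. No order of groups can be read from these, and a change in this exchanger was not detectable at this depth.

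Per kilobase of exon, the scale on which genes can be compared, the genes stood in a clear order in Vehicle embryos. Atp1b3 was highest, at 74.0 ± 9.51 CPM per kb (SD, n = 3, as for every group mean below). Aqp3 at 43.9 ± 4.81 and Atp1b1 at 42.8 ± 6.56 did not differ beyond their spread. Aqp9 followed at 21.3 ± 2.74 CPM per kb, then Aqp8 at 5.29 ± 4.34 and Aqp11 at 0.573 ± 0.131. In TSA embryos Aqp9 led instead, at 240 ± 18.1 CPM per kb against 95.2 ± 10.3 for Atp1b3, whereas in A485 embryos it stood at 0.166 ± 0.0360.

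**Figure D1:**
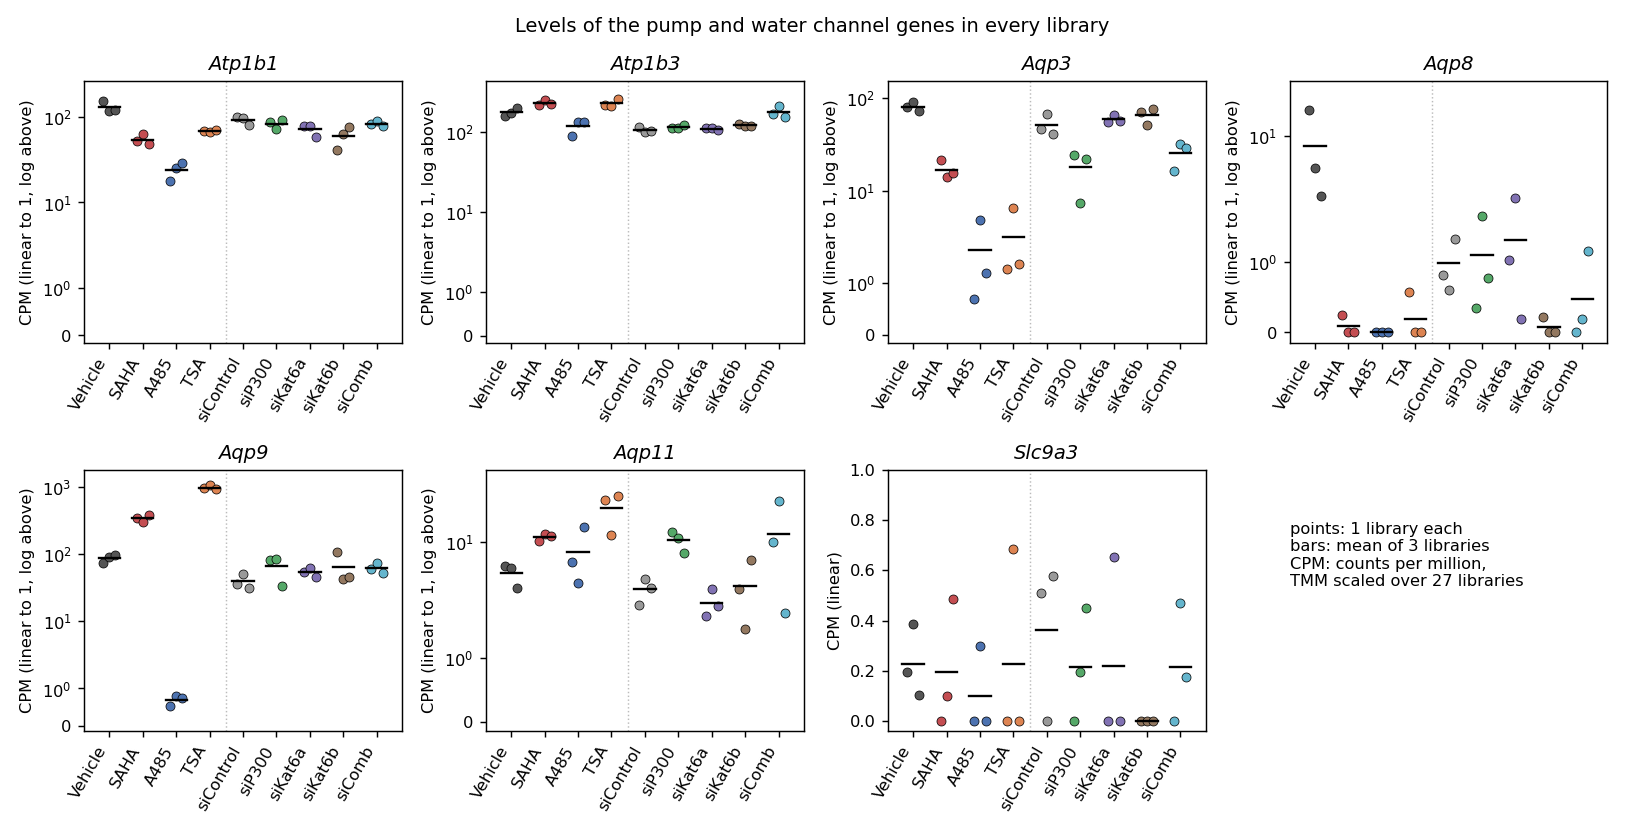
CPM of each of the 7 genes in every library, with the 9 groups along the horizontal axis; points are libraries, bars are means of 3, and the vertical axis is linear up to 1 CPM and logarithmic above (linear throughout for Slc9a3). Aqp9 lies between 935 and 1078 CPM in the TSA libraries and between 0.52 and 0.8 in the A485 libraries, while Atp1b3 stays between 90.1 and 256 CPM in all 27.

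The stretches just before a RefSeq start of 3 of the genes are shown because these genes took different courses with the deacetylase inhibitors: Atp1b1 and Aqp3 fell and Aqp9 rose. Each is the 250 bases upstream of a RefSeq transcription start on GRCm38.p6, read 5′ to 3′ on the gene's minus strand, at chr1:164458356-164458605 for Atp1b1, chr4:41098184-41098433 for Aqp3 and chr9:71163290-71163539 for Aqp9, the farther upstream of the gene's 2 RefSeq starts. In GENCODE vM21 the Aqp9 gene runs farther upstream, to chr9:71168682, so the Aqp9 window lies inside the gene. Which start was in use in these embryos was not tested. Capitals mark the motifs found.
Atp1b1: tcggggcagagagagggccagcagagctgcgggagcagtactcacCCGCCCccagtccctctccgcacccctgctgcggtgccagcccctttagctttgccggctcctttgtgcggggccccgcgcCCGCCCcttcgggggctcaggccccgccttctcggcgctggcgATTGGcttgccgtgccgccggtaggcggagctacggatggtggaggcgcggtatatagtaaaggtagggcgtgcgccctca
Aqp3: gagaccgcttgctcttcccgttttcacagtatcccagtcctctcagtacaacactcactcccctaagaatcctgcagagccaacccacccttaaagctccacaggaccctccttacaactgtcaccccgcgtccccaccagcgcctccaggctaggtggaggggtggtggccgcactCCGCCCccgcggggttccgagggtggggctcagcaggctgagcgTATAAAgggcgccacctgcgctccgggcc
Aqp9: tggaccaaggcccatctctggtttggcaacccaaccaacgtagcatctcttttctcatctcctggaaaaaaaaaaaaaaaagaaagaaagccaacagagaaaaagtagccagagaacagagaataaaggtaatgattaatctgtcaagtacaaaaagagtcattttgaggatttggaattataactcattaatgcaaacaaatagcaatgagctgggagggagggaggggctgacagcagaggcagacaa
Searched on both strands were GGGCGG (the GC box, held by 32.7% of all 32817 such windows), CCAAT (33.8%), TATAAA (12.4%), GGAATG (bound by TEAD factors, 12.6%) and GCCNNNGGC (bound by TFAP2 factors, 13.7%). The Atp1b1 window holds 2 GC boxes and 1 CCAAT, and the Aqp3 window 1 GC box and 1 TATAAA. Neither Aqp9 window holds any of the motifs. The Aqp9 window shown has 1 CpG, against 24 in that of Atp1b1, 14 in that of Aqp3 and a median of 6 over all windows (quartiles 2 and 16). The other members do not divide this way. The window of Aqp8, which fell with all 3 inhibitors, has 5 CpG, 1 GGAATG and no GC box. That of Aqp11, which rose with TSA, has 23 CpG. A match of letters is a description of the window and not a site of binding.

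The Na,K-ATPase is built from a catalytic alpha and a beta subunit, and the beta subunit is needed to assemble the pump and bring it to the membrane. Atp1b1 encodes the beta1 subunit, the main beta form of the trophectoderm pump in the mouse. Its level was 155, 119 and 121 CPM in the Vehicle libraries, 52.7, 62.5 and 47.7 with SAHA, 17.7, 25.1 and 29.0 with A485 and 69.1, 66.6 and 70.2 with TSA. Every inhibitor library lay below every Vehicle library, and the A485 libraries were the lowest of the 27. Atp1b1 fell with all 3 inhibitors, with a log2 fold change of -1.33 ± 0.20 with SAHA (SE; edgeR adjusted p = 1.73e-04), -2.50 ± 0.21 with A485 (adjusted p = 4.33e-07) and -0.91 ± 0.20 with TSA (adjusted p = 0.00121). Atp1b1 shares 575 exon bases with Nme7 on the opposite strand, and whether the counting used strand is not given in the sources used here. Nme7 stood at 65.8 ± 5.64 CPM in Vehicle, 46.6 with SAHA, 83.6 ± 20.0 with A485 and 41.2 under TSA. Its mean was thus lower than in Vehicle with SAHA and TSA, as that of Atp1b1 was, and higher with A485. In siKat6a and siKat6b Nme7 stood at 42.5 ± 9.82 and 38.8 ± 10.9 CPM against 59.1 ± 6.01 in siControl, where Atp1b1 was lower too. The part of shared reads in the result was not tested.

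In the siRNA family no comparison of Atp1b1 passed the test. It stood at 101, 97.3 and 80.7 CPM in siControl, 87.1, 72 and 91.7 in siP300, 82.8, 88.6 and 78.1 in siComb, 79.4, 78.1 and 57.6 in siKat6a and 41.3, 62.8 and 77.4 in siKat6b. The siKat6a and siKat6b libraries all lay below siControl. The log2 fold change was -0.63 ± 0.21 in siKat6b (edgeR adjusted p = 0.278), between -0.85 and -0.41 in other settings with an adjusted p of 0.0920 or more, and -0.37 ± 0.21 in siKat6a (adjusted p = 1.00). It was -0.15 ± 0.21 in siP300 (adjusted p = 0.609) and -0.12 ± 0.21 in siComb (adjusted p = 0.672), and these last turn positive with scaling by library size alone, at 0.18 and 0.14. That scaling moves the median of all genes by 0.33 in siP300 and by 0.26 in siComb, so relative to it the direction stays negative.

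Atp1b3 encodes the beta3 subunit and varied least of the 6 genes tested. The libraries held 157, 171 and 202 CPM in Vehicle, 215, 253 and 226 with SAHA, 90.1, 132 and 132 with A485 and 217, 210 and 256 with TSA. SAHA and TSA libraries were all above Vehicle and A485 libraries all below. Atp1b3 fell with A485 by 0.62 ± 0.17 on the log2 scale (edgeR adjusted p = 0.00859), although without A485 1 the value was -0.37 (adjusted p = 0.0665). With SAHA the log2 fold change was 0.35 ± 0.17 (adjusted p = 0.132) and with TSA 0.40 ± 0.17 (adjusted p = 0.0564), and the TSA difference passed in 8 of 15 other settings, among them the fit without Vehicle 3 (0.51, adjusted p = 0.0409).

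In injected embryos Atp1b3 stood at 114, 99.9 and 104 CPM in siControl and at 166, 213 and 152 in siComb, with no overlap. It rose in siComb by 0.78 ± 0.14 (edgeR adjusted p = 5.69e-04; 0.65 and 0.00523 without the 4 high-MERVL siRNA libraries). The other injected groups held 112, 112 and 124 CPM (siP300), 111, 112 and 107 (siKat6a) and 126, 120 and 118 (siKat6b), none past the test. Over all 9 groups, SAHA and TSA had the highest means, 232 ± 19.7 and 227 ± 24.7 CPM, and did not differ beyond their spread. The lowest was siControl, 106 ± 7.39, followed upward by siKat6a, siP300, A485 and siKat6b. From siControl up to siKat6b, each gap between neighbours was within their spread. The gap from siKat6b up to Vehicle, at 177 ± 22.7 CPM, exceeded it. The siKat6b libraries nevertheless all lay above siControl, at 118 to 126 CPM against 99.9 to 114.

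Aquaporins are channels for water, and some, the aquaglyceroporins, also pass glycerol. Aqp3, an aquaglyceroporin present in the mouse trophectoderm, was lower than its control in 5 of the 7 treated groups. The libraries held 79.1, 89.7 and 72.2 CPM in Vehicle, 21.4, 13.9 and 15.4 with SAHA, 0.693, 4.80 and 1.31 with A485 and 1.43, 6.57 and 1.61 with TSA. Every inhibitor library lay below every Vehicle library. Aqp3 fell with each, with a log2 fold change of -2.29 ± 0.51 with SAHA (edgeR adjusted p = 0.00341), -5.21 ± 0.61 with A485 (adjusted p = 1.04e-05) and -4.61 ± 0.59 with TSA (adjusted p = 1.64e-05). A485 and TSA libraries overlapped.

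Aqp3 was also the member that fell in siP300. It stood at 46.8, 66.4 and 41.3 CPM in siControl, 24.2, 7.37 and 22.0 in siP300 and 16.5, 32.1 and 28.6 in siComb. Both treated groups lay wholly below siControl, and siP300 2 was the lowest. The log2 fold change was -1.51 ± 0.34 in siP300 (edgeR adjusted p = 0.00283), and the call held in all 16 other settings, with log2 fold changes between -1.81 and -1.13. In siComb it was -0.97 ± 0.33 (adjusted p = 0.0321), and the call was lost in 5 of 16 settings, with adjusted p = 0.0548 without siControl 1, 0.140 without siControl 2, 0.137 without siComb 1, 0.118 with library size alone and 0.105 in a fit of all 27 libraries. The siKat6a libraries (55.6, 65.9 and 56.3 CPM) and the siKat6b libraries (71.3, 51.3 and 76.0) overlapped siControl. Markers of blood and immune cells moved with the same groups, summing to 52.3 to 155 CPM in siP300 and 83 to 135 in siComb against 6.31 to 7.7 in siControl. Hba-a1 and Cd68 made up most of it, while Hbb-bs was at 0 in every library and Ptprc at no more than 0.411 CPM. Cumulus markers summed to 7.59 to 14.6 CPM in siP300 and 6.28 to 9.86 in siComb against 0.962 to 1.6 in siControl. Tnfaip6 was the largest part, at 7.54 ± 3.33 CPM in siP300 and 4.74 ± 0.627 in siComb. Only 2 of the 8 cumulus genes had enough counts to be tested, and Fshr was at 0 in siP300. The part of these markers in the result was not tested.

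Aqp9, another aquaglyceroporin of the mouse trophectoderm, took opposite courses with the deacetylase inhibitors and with A485. Its libraries held 75.7, 91.0 and 97.9 CPM in Vehicle, 348, 309 and 391 with SAHA, 968, 1078 and 935 with TSA, and 0.52, 0.8 and 0.749 with A485, which are 6 to 8 counts a library. The 4 groups did not overlap at any point. Aqp9 rose 3.84-fold with SAHA (log2 1.94 ± 0.15, edgeR adjusted p = 8.98e-07) and 11.6-fold with TSA (log2 3.53 ± 0.16, adjusted p = 5.98e-09), and fell with A485 (log2 -7.02 ± 0.22, adjusted p = 9.90e-11). The calls held in all 15 other settings, without Vehicle 3 included. MERVL stood at 2181 to 4569 CPM with SAHA and 8393 to 9742 with TSA, against 12.54, 14.33 and 244.6 in Vehicle and 5.55 to 16.2 with A485. Vehicle 1 and 2 thus overlapped A485 in MERVL while their Aqp9 levels lay far apart. The relation of MERVL to Aqp9 was not tested.

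In injected embryos Aqp9 stood at 36.0, 51.0 and 31.5 CPM in siControl, 81.8, 85.9 and 34.3 in siP300, 55.4, 62.5 and 46.7 in siKat6a, 107, 43.4 and 45.9 in siKat6b and 60.4, 74.3 and 52.7 in siComb. The siComb libraries were all above siControl and the other groups overlapped it. No comparison passed: the log2 fold change was 0.78 ± 0.35 in siP300 (edgeR adjusted p = 0.0882) and 0.70 ± 0.35 in siComb (adjusted p = 0.125). MERVL stood at 899 and 947 CPM in siKat6b 1 and siKat6b 3 and at 35 in siKat6b 2, where Aqp9 was 107, 45.9 and 43.4 CPM in that order. In other settings the siP300 value lay between 0.54 and 1.11, and it passed in 4 of 16. The highest value came without siP300 3 (edgeR adjusted p = 0.0169). The lowest came without the 4 high-MERVL siRNA libraries (adjusted p = 0.145).

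Aqp8, which encodes a water channel, was detected at a low level and unevenly. Vehicle libraries held 166, 58 and 32 counts, against 2, 0 and 0 with SAHA, 0, 0 and 0 with A485 and 4, 0 and 0 with TSA. All 9 inhibitor libraries lay below the lowest Vehicle library. Aqp8 was 115 times lower per total count with SAHA (95% exact interval 20.3 to 4580 on halved counts) and 47.8 times lower with TSA (13 to 399). With A485 it was at least 90.3-fold lower on unhalved counts, taking 3 counts over the group as the floor. That bound would be lower on halved counts, so it is not on the same basis as the intervals. These intervals cover counting error only. The edgeR test gave adjusted p = 0.00141, 0.00135 and 3.21e-04 in that order. Vehicle 1 held 166 of the 256 Vehicle counts. Without it, Aqp8 was 60.4 times lower with SAHA (10.3 to 2440), 25.1 times lower with TSA (6.56 to 214) and, on unhalved counts, at least 47.5-fold lower with A485. The edgeR adjusted p was then 0.0124, 0.0141 and 0.00235 in that order. In the siRNA family the counts were 8, 6 and 16 in siControl, 4, 24 and 12 in siP300, 10, 30 and 2 in siKat6a, 2, 0 and 0 in siKat6b and 0, 2 and 14 in siComb, and no comparison passed.

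Aqp11, a channel of the endoplasmic reticulum rather than the surface membrane, was the one aquaporin tested that did not fall with any inhibitor. It stood at 6.24, 5.97 and 3.98 CPM in Vehicle, 10.2, 11.7 and 11.2 with SAHA, 6.76, 4.4 and 13.5 with A485 and 23.2, 11.6 and 24.9 with TSA. SAHA and TSA libraries were all above Vehicle. It rose with TSA by 1.91 ± 0.41 on the log2 scale (edgeR adjusted p = 0.00114), while the values with SAHA (0.98 ± 0.40, adjusted p = 0.0750) and A485 (0.57 ± 0.40, adjusted p = 0.269) did not pass. The SAHA value passed in 3 of 15 other settings and the A485 value in 0 of 15.

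Among injected embryos Aqp11 stood at 2.85, 4.80 and 4.04 CPM in siControl, 12.3, 10.9 and 8.11 in siP300 and 10.1, 22.7 and 2.44 in siComb. All siP300 libraries were above siControl, but the log2 fold change of 1.43 ± 0.59 did not pass (edgeR adjusted p = 0.0670). It passed in 6 of 16 other settings, among them the fit without the 4 high-MERVL siRNA libraries (1.38). In siComb Aqp11 rose by 1.61 ± 0.59 (edgeR adjusted p = 0.0402) although siComb 3 lay below siControl, and the call was lost in 7 of 16 settings. Among these was the fit without the 4 high-MERVL siRNA libraries (log2 fold change 0.75). Without siComb 2 the log2 fold change was 0.74 (adjusted p = 0.341), and without any 1 of the siControl libraries or siComb 1 the adjusted p lay between 0.0633 and 0.135. The siKat6a libraries (2.28 to 3.92 CPM) and siKat6b libraries (1.75 to 6.94) overlapped siControl.

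**Figure D2:**
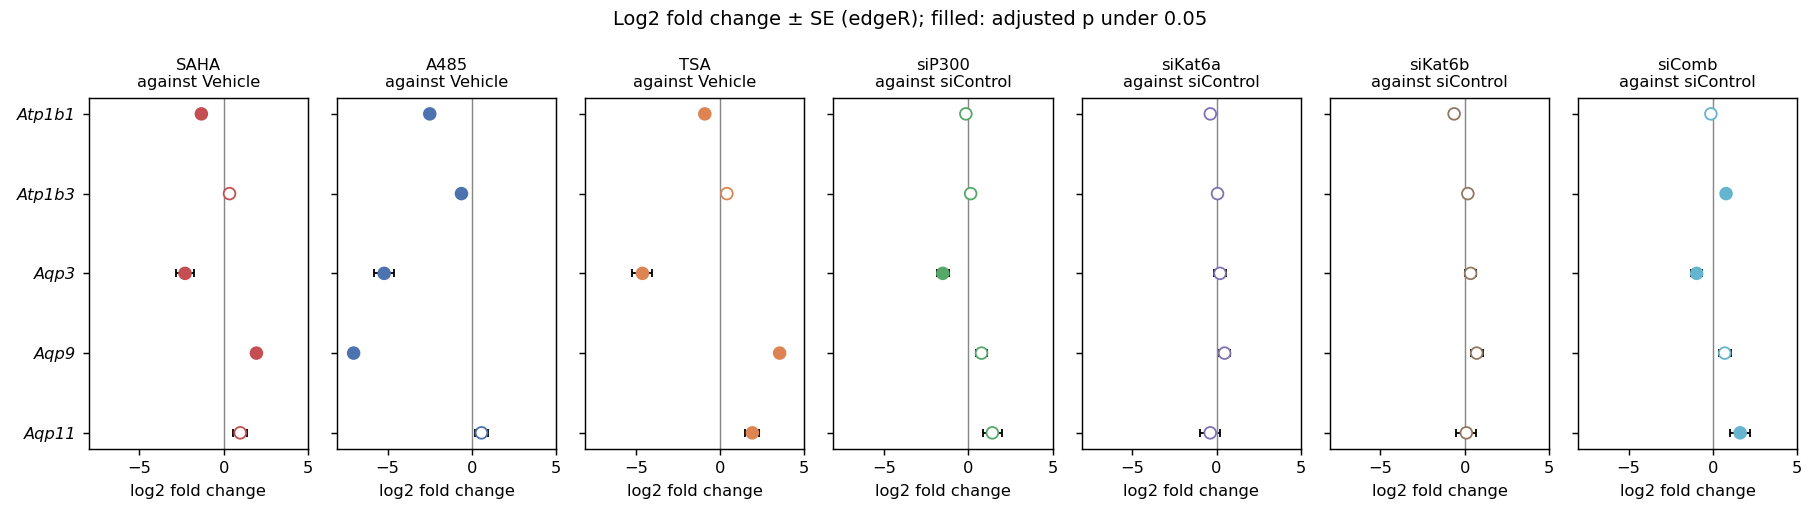
Log2 fold change ± SE of the 5 better-counted genes in each treated group against its control (horizontal axis; edgeR); filled points have an adjusted p under 0.05. Aqp9 lies at 1.94 with SAHA, -7.02 with A485 and 3.53 with TSA, and in the siRNA panels the filled points are Aqp3 in siP300 and Atp1b3, Aqp3 and Aqp11 in siComb. Aqp8 is left out because its fold depends on groups at or near 0 counts.

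Counted together, 4 of the 6 members tested passed with SAHA, 1 higher and 3 lower, where 34.2% of all genes tested passed. With A485, 5 of 6 passed, all lower, against 45.5% of all genes, and with TSA 5 of 6, 2 higher and 3 lower, against 58.1%. These comparisons share the Vehicle libraries. In siP300 1 of 6 passed, where 35.4% of all genes did, and in siComb 3 of 6 against 36.7%. The siP300 count is below the background, and it rises to between 2 and 4 members in several other settings. In siKat6a, edgeR called 0 of 6 members and 0% of all genes (410 genes at an unadjusted p under 0.05, of which 0 were members), and DESeq2 called 0 members and 2 genes. In siKat6b, edgeR called 0 of 6 members and 0.0209% of all genes (2 of 6 members and 2002 of 19180 genes at an unadjusted p under 0.05), and DESeq2 called 0 members and 237 genes.

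The treated groups were next compared with each other. TSA and A485 act on acetylation in opposite directions, as inhibitors of deacetylases and of acetyltransferases. Between them, 4 of 6 members differed, all higher with TSA, where 63.5% of all genes did. The differences were 10.55 ± 0.24 on the log2 scale for Aqp9 (edgeR adjusted p = 2.27e-12), 1.59 ± 0.20 for Atp1b1 (adjusted p = 1.08e-05), 1.35 ± 0.40 for Aqp11 (adjusted p = 0.00875) and 1.02 ± 0.17 for Atp1b3 (adjusted p = 1.40e-04). Aqp3, at 3.20 ± 2.92 CPM with TSA and 2.27 ± 2.21 with A485, did not pass (0.60 ± 0.62, adjusted p = 0.414); its value was 1.73 without A485 2 (adjusted p = 0.0267) and -0.43 without TSA 2.

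SAHA and TSA are both hydroxamic acids but were given at different doses, so their values are set side by side without a test. Aqp9 stood at 349 ± 40.7 CPM with 500 nM SAHA and 994 ± 74.8 with 50 nM TSA. Aqp3 stood at 16.9 ± 3.94 and 3.20 ± 2.92 CPM, Atp1b1 at 54.3 ± 7.55 and 68.6 ± 1.86, and Atp1b3 at 232 ± 19.7 and 227 ± 24.7.

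A485 inhibits the protein that the siP300 injection was aimed at, together with its relative CBP. Whether the change with A485 against Vehicle differed from that with siP300 against siControl was tested in 1 fit of all 27 libraries, since these comparisons share no samples. The change was more negative with A485 for 5 of 6 members, where 26.5% of all genes differed. The difference of log2 fold changes was -7.81 ± 0.50 for Aqp9 (edgeR adjusted p = 6.62e-11), -3.71 ± 0.70 for Aqp3 (adjusted p = 3.40e-04), -2.37 ± 0.30 for Atp1b1 (adjusted p = 2.36e-06) and -0.77 ± 0.22 for Atp1b3 (adjusted p = 0.00947). Aqp8 was the remaining one (adjusted p = 0.00255), with 0 counts under A485, and Aqp11 did not pass (adjusted p = 0.427). The start, length and means of the treatments differ between these families and cannot be told apart from the target.

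Between siComb and siP300, 1 of 6 members differed, where 0.798% of all genes did. That was Atp1b3, higher in siComb by 0.64 ± 0.14 (edgeR adjusted p = 0.0467), and the call was lost in 10 of 16 other settings, among them the removal of any 1 library of either group (adjusted p between 0.0520 and 0.149). Between the control groups, 2 of 6 members differed, where 17.6% of all genes did. In siControl, Atp1b3 was lower than in Vehicle (log2 -0.79 ± 0.15, edgeR adjusted p = 7.43e-04), as was Aqp9 (-1.21 ± 0.29, adjusted p = 0.00510). The siControl libraries also lay wholly below Vehicle for Atp1b1, Aqp3 and Aqp8, none past the test, while those of Aqp11 overlapped. Aqp8 had 30 counts over siControl against 256 over Vehicle, and it passed in 5 of 14 other settings. Without the 4 high-MERVL siRNA libraries, Atp1b1 (-0.57) and Aqp8 (-3.14) passed as well. Injection, time in culture and handling cannot be told apart in that comparison.

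The other genes of the pump moved in both directions. As background, 20.2% of all genes tested rose and 14% fell with SAHA, 21.4% and 24.2% with A485, 31.6% and 26.6% with TSA, 19.7% and 15.7% in siP300 and 19.6% and 17.1% in siComb. Of 12 further Na,K-ATPase genes, 7 were tested with the inhibitors: 4 rose and 2 fell with SAHA (median log2 fold change 1.14, against 0.06 over all genes tested), 1 rose and 3 fell with A485 (-0.88 against -0.06), and 4 rose and 2 fell with TSA (1.65 against 0.08). Of 8 tested in the siRNA family, 3 rose and 2 fell in siP300 (-0.16 against 0.12) and 3 rose and 3 fell in siComb (-0.54 against 0.09). Fxyd4, a small membrane protein that tunes the pump, fell with A485 from 29.5 ± 9.72 to 0.787 ± 0.531 CPM (edgeR adjusted p = 2.56e-06). It also fell in siP300, to 3.93 ± 0.439 from 27.9 ± 5.33 CPM (adjusted p = 1.25e-05), and in siComb, to 3.86 ± 1.68 (adjusted p = 8.32e-06). Atp1b2, the beta2 subunit, picked out after its values were seen, rose from 1.11 ± 0.762 CPM in Vehicle to 8.25 ± 0.524 with SAHA (edgeR adjusted p = 0.00820) and 19.7 ± 1.93 with TSA (adjusted p = 2.80e-04). With A485 it stood at 1.16 ± 1.46 CPM. Its level was also higher in siP300, at 25.7 ± 10.2 CPM, and in siComb, at 33 ± 9.47, against 0.866 ± 1.16 in siControl.

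Of the exchangers of the Slc9 family and their scaffolds, a share near that of all genes passed with TSA, 5 of 9 against 58.1%. Of 10 genes other than Slc9a3, 9 were tested with the inhibitors: 2 rose and 0 fell with SAHA (median 0.57), 2 rose and 3 fell with A485 (0.0032), and 5 rose and 0 fell with TSA (1.3, against 0.08 over all genes). Of 8 tested in the siRNA family, 3 rose and 2 fell in siP300 (0.86), and 2 rose and 2 fell in siComb (0.64). Slc9a9, an exchanger of endosomes, rose from 1.18 ± 1.71 CPM in Vehicle to 60.5 ± 25.8 with SAHA (edgeR adjusted p = 2.16e-05) and to 163 ± 16.2 with TSA (adjusted p = 1.12e-06). In injected embryos it stood at 26.5 ± 19.4 CPM in siP300, 15.5 ± 13.4 in siKat6b and 4.93 ± 6.64 in siComb. The siControl level was 0.527 ± 0.302 CPM. Slc9a7, an exchanger of the Golgi, rose from 0.658 ± 0.410 CPM in siControl to 21.2 ± 3.97 in siP300 (edgeR adjusted p = 9.02e-06) and 18.2 ± 3.86 in siComb (adjusted p = 7.64e-06). With A485 its level was 14.6 ± 3.06 CPM, with SAHA 3.51 ± 0.674 and with TSA 4.39 ± 1.27, against 1.22 ± 0.278 in Vehicle.

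Of 11 other ion transporters of epithelia that move fluid, 7 were tested with the inhibitors: 1 rose and 1 fell with SAHA (median 0.12), 0 rose and 1 fell with A485 (0.28), and 4 rose and 2 fell with TSA (1.27). In the siRNA family 8 were tested, with 3 rising and 1 falling in both siP300 (0.82) and siComb (0.87). Atp12a, a proton pump related to the Na,K-ATPase, fell with SAHA from 15.1 ± 6.18 to 1.22 ± 0.0170 CPM (edgeR adjusted p = 3.63e-04) and in siP300 from 21.6 ± 2.87 to 2.62 ± 0.962 (adjusted p = 1.05e-05). Its level was also low with A485 (2.58 ± 1.85 CPM), with TSA (3.36 ± 2.34) and in siComb (4.64 ± 1.59). In siKat6a and siKat6b Atp12a stood at 24.0 ± 1.46 and 17.9 ± 5.10 CPM. Of the 8 further aquaporins, 1 was tested with the inhibitors. That was Aqp7, an aquaglyceroporin, which fell from 40 counts over Vehicle to 2 with SAHA (adjusted p = 0.0425) and 4 with A485 (adjusted p = 0.0465). With TSA it had 14 counts and did not pass (adjusted p = 0.482). In the siRNA family 2 of the 8 were tested and 0 passed in any group against siControl.

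Genes known to direct trophectoderm formation and cavitation in the mouse were read against the same background, in which 14% of all genes fell with SAHA, 24.2% with A485, 26.6% with TSA, 15.7% in siP300 and 17.1% in siComb. Of 10 such regulators, all tested, 5 fell and 0 rose with SAHA (median -0.65), 6 fell and 3 rose with A485 (-1.09), 6 fell and 0 rose with TSA (-0.82), 5 fell and 0 rose in siP300 (-0.56) and 5 fell and 1 rose in siComb (-0.66). The transcription factor gene Gata3 stood at 334 ± 19.6 CPM in Vehicle, 82.4 ± 8.04 with SAHA, 34.6 ± 13.2 with A485 and 5.78 ± 0.997 with TSA (edgeR adjusted p = 1.20e-05, 1.15e-07 and 6.01e-09). Tead4, a factor needed for trophectoderm fate, fell from 100 ± 13 to 36.8 ± 4.92, 8.15 ± 1.76 and 15.9 ± 5.94 CPM in the same order (adjusted p = 3.94e-04, 1.65e-07 and 1.52e-06). Cdx2, which specifies the trophectoderm, had 0 counts in every A485 library and was at least 143-fold lower than in Vehicle, by the same floor of 3 unhalved counts. Wwtr1, a coactivator of the TEAD factors, fell in siP300 from 150 ± 1.58 to 49.6 ± 17.3 CPM (adjusted p = 6.05e-05). Markers of the preimplantation embryo, such as Pou5f1, fell in the same groups, 5 of 7 tested with SAHA, 5 with A485, 7 with TSA, 5 in siP300 and 5 in siComb, with 0 rising. Cdx2 and Tfap2c are on this list and among the regulators too, so the lists are not independent. Blood and immune markers summed to 32.6 to 66 CPM with A485 and 40 to 68.2 with TSA against 14.2 to 22 in Vehicle. The part of either list in the results was not tested. In siKat6a and siKat6b edgeR called 0 of the 36 other genes tested on these lists (1 and 4 at an unadjusted p under 0.05), and DESeq2 called 0 and 1.

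**Figure D3:**
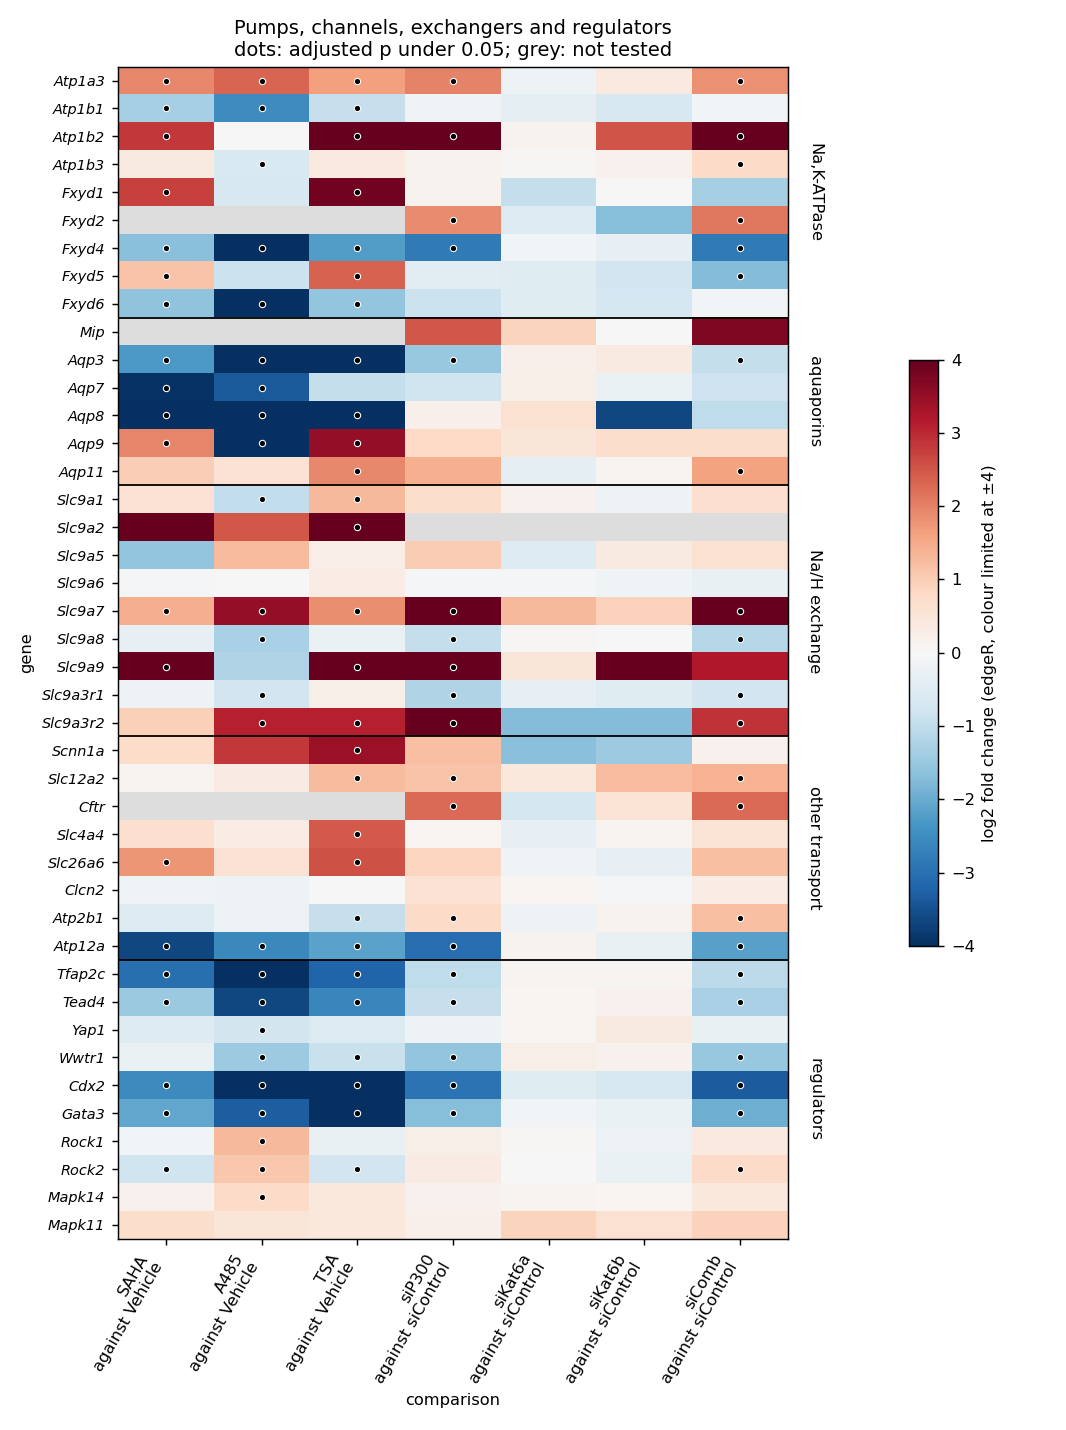
Log2 fold change (colour, limited at 4 in either direction; edgeR) of the pump, aquaporin, exchanger, transporter and regulator genes shown (rows) in each treated group against its control (columns). Dots mark an adjusted p under 0.05; Atp1b1, Aqp3, Aqp8, Fxyd4, Fxyd6, Tfap2c, Tead4, Cdx2 and Gata3 are among the genes lower in all 3 inhibitor columns, and no dot lies in the siKat6a or siKat6b column. Colours of Aqp8 and Cdx2 rest on groups at or near 0 counts.

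The genes whose levels most resembled each member over the 27 libraries were named by Pearson correlation of log2 CPM among 8214 genes, as a description, since libraries of a group share their treatment. Aqp3 was most like Ptges (r = 0.951), Plpp3 (0.948) and Slc43a3 (0.947). Plpp3 stood at 103 ± 6.33 CPM in Vehicle, 8.79 ± 3.83 with A485, 4.86 ± 1.03 with TSA and 27.5 ± 7.71 in siP300. Aqp9 was most like Ubtfl1 (0.974), Popdc3 (0.968) and Ddit4l (0.965). Popdc3 stood at 28.5 ± 0.789 CPM in Vehicle, 140 ± 32.9 with SAHA, 311 ± 36.0 with TSA and 0.882 ± 0.884 with A485. Atp1b1 was most like Idh1 (0.884), Atp1b3 like Akr1b3 (0.885) and Aqp11 like Bpgm (0.863). Among the 5 members compared, which leave out Aqp8 and Slc9a3, the highest correlation was 0.65, between Atp1b1 and Aqp3, and the lowest was -0.59, between Aqp3 and Aqp11.

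**Figure D4:**
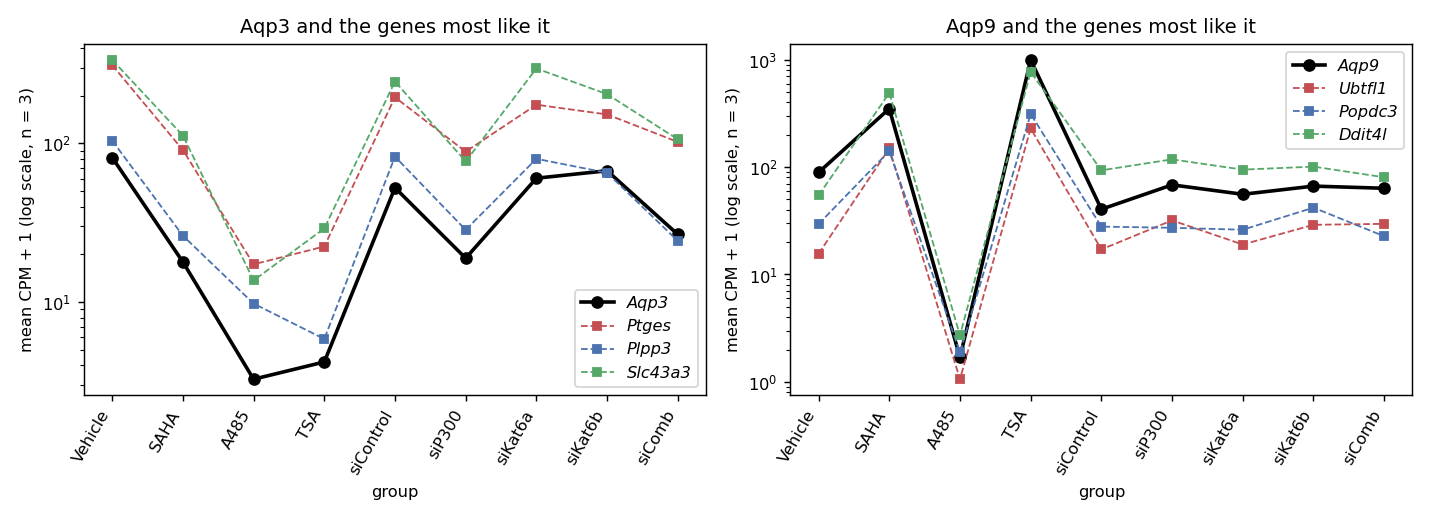
Mean CPM + 1 (vertical axis, log scale, n = 3) over the 9 groups for Aqp3 and Aqp9, each with the 3 genes of most similar pattern. Aqp3 and its neighbours are lowest with A485 and TSA, while Aqp9 and its neighbours are highest with TSA and lowest with A485.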

How the data were processed

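Each library held polyadenylated RNA from a pool of mouse morulae, amplified with a low-input kit, per the labels' protocols. The authors deposited raw counts per gene. Per the submitters' processing notes, STAR 2.7.11a, featureCounts and Subread 2.0.6 were among the tools, along with MultiQC and Scanpy 1.8.2, and mm10 and GRCh38 among the builds. How pairs of reads were handled, whether strand was used and the annotation release are details not given in the sources used here. Between 83.3 and 85.9% of the nonzero counts of a library were even, so counting intervals were also computed on halved counts. The bounds that rest on a floor of 3 counts were not. The table of the series equalled the sample files in 27 of 27 libraries. Its 2 MERVL rows were left out of library sizes and tests.

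Titles of the samples gave the groups, and file headers the doses. Replicates differed beyond sampling noise in all 27 pairs (chi-square per degree of freedom 8.35 to 48.9). Genes were tested with edgeR 4.0.16 (R 4.3.3): TMM scaling, filterByExpr with a minimum count of 10, the quasi-likelihood test and Benjamini-Hochberg adjustment over all genes tested, with a threshold of 0.05. The inhibitor family (18297 genes tested) and the siRNA family (19180) had 1 fit each, and comparisons across them used all 27 libraries (20744). SE is the log2 fold change divided by the square root of the F statistic. CPM per kb uses the union of exons in GENCODE vM21 on GRCm38. Promoter windows came from RefSeq (GRCm38.p6), in which all 7 genes matched, with 9 windows. The test was checked on simulated counts.

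The members, lists, tests and alternatives were chosen with earlier results of these data known. Named in each comparison were the 7 members, and of the other listed genes up to 4 by adjusted p among those called, or the most abundant of a list with none called; not all of these are written out, and a listed gene counted in the totals is not reported here by name. Per member with a mean of at least 5 CPM, the 3 most correlated genes with a mean of at least 10 CPM were taken (prior count 2), leaving out unnamed gene models. Alternatives were DESeq2 size factors, library size alone, DESeq2 1.42.0, other filters (none beyond 1 count, or 5 CPM in 3 libraries), a replicate block, other sets of libraries, halved counts and leaving out each library. Levels came from pandas 2.3.3, SciPy 1.17.1 and numpy 2.4.6 (Python 3.11.15), and figures from matplotlib 3.10.9.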

Additional observations from a re-analysis of the deposited data

How the results depend on the processing

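Of 1034 values of the members under other settings, 950 kept both their direction and their side of the threshold, 24 lost a call, 36 gained one and 24 changed sign, none of these last being called. The counts of members called with each inhibitor, in siKat6a, in siKat6b, between TSA and A485 and in the A485 effect against the siP300 effect stayed within 1.5 times of the value given in every setting run. In siP300 the count was 4 with library size alone, 3 with no filter or all 27 libraries, and 2 with DESeq2 or just the groups compared; leaving out 1 library gave 1 to 2. In siComb leaving out 1 library gave 1 to 3. Between siComb and siP300 it was 0 with library size alone, with the block, with just the groups compared and in each fit that left out 1 library. Between siControl and Vehicle it was 5 with just the groups compared. Without the 4 siRNA libraries of high MERVL counts, an alternative chosen after seeing the data, it was 2 in siP300, 0 between siComb and siP300 and 4 between siControl and Vehicle.

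Of all genes, siKat6a gave 2 calls with DESeq2 and 15 with no filter. Compared with 4 calls, siKat6b gave 2 with DESeq2 size factors, with the block and with halved counts, 237 with DESeq2, 755 with no filter, 59 with just the groups compared, 29 with all 27 libraries and 1 to 160 with 1 library left out, the highest without siKat6b 2. Compared with 153, siComb against siP300 gave 99 with library size alone, 613 with DESeq2, 733 with no filter, 48 with the block, 0 with just the groups compared and 26 to 165 with 1 library left out, the lowest without siComb 1. Compared with 3653, siControl against Vehicle gave 5880 with just the groups compared and 2060 to 2890 with 1 library left out, the lowest without siControl 3. The cause was not tested.

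Log2 fold changes that changed sign were all of uncalled genes. Atp1b1 became 0.18 in siP300, 0.14 in siComb and -0.045 in siComb against siP300 with library size alone, and -0.013 in the last with the 5 CPM filter. Aqp8 became -0.0068 in siP300 with the block. Without the 4 libraries, Aqp8 became -0.80 in siP300, Aqp3 -0.0013 and Aqp11 -1.14 in siKat6b, and, in siComb against siP300, Atp1b1 became -0.082, Aqp8 0.17, Aqp9 0.039 and Aqp11 -0.63. Leaving out 1 library gave -0.77 to 0.68 for Aqp8 in siP300, -0.69 to 1.125 for Aqp8 in siKat6a, -0.49 to 0.46 for Aqp11 in siKat6b and -0.43 to 1.73 for Aqp3 in TSA against A485. In siComb against siP300 it gave -0.058 to 0.080 for Atp1b1, -0.41 to 0.15 for Aqp9 and -0.68 to 0.66 for Aqp11.

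The correlation of same-numbered deviations from the group means passed 0.1 in 2 of 9 pairs with Vehicle (-0.0399 to 0.154), both of them with SAHA (0.138 and 0.154). It did so in 0 of 12 pairs with siControl (-0.0948 to 0.0422). Differently numbered pairs were not compared, so these values cannot settle whether replicate numbers pair the samples. With the replicate block, 4, 5 and 6 members were called with SAHA, A485 and TSA, 1 in siP300 and 2 in siComb. Median log2 fold changes of all genes shifted by over 0.1 with library size alone in siP300 (0.33), siComb (0.26), siKat6b (0.10), TSA against A485 (-0.13) and the A485 effect against the siP300 effect (-0.26), and with DESeq2 size factors with TSA (0.14) and in TSA against A485 (0.12). Aqp8, Aqp11 and Slc9a3 are limited by depth, and groups of 3 libraries limit every test.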
